A study of Mus musculus with 6 samples.

Results

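Neuronal nicotinic acetylcholine receptors were examined in the mouse retina through the 9 genes that encode their subunits: Chrna2, Chrna3, Chrna4, Chrna5, Chrna6, Chrna7, Chrnb2, Chrnb3 and Chrnb4. They were taken by gene symbol from the 32285 genes of the deposited tables, and all 9 were present. The measurements are UMI counts (unique molecular identifiers, each standing for 1 captured RNA molecule) from single-nucleus RNA-seq of wild-type C57BL/6J retinas with the 10x Genomics 3′ chemistry. There were 3 libraries from mice of 18 months and 3 libraries from mice of 3 months, and no other treatment or allele was named for them. The labels did not say whether a library came from 1 animal or several, so p-values measure the spread between libraries.

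These receptors are pentameric cation channels opened by acetylcholine. Most pair alpha subunits, which carry the main face of the binding site, with beta subunits, and Chrna5 and Chrnb3 encode accessory subunits that join such complexes without forming that site themselves. The Chrna7 product can form a channel on its own, with high calcium permeability. In the retina, acetylcholine is released by starburst amacrine cells, and it acts on ganglion cells and other amacrine cells, where it drives the spontaneous waves of the developing retina and takes part in motion processing in the adult.

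After filtering, 50241 nuclei with 108005775 UMIs remained, and 33348 of them fell into clusters that could be named from marker genes. Compared here are 10 classes, each holding 20 nuclei or more in all 6 libraries. A level is given as CPM, the gene's UMIs per 1000000 UMIs of that class in a library. Library totals in retained nuclei ran from 19196048 to 23784708 UMIs at 18 months and from 13388714 to 18359184 UMIs at 3 months. In 18-month replicate 3, 78.8% of nuclei stayed unnamed, against 10.1% to 24.6% in the other 5 libraries, and its ganglion cell nuclei were shallow, with a median of 1309 UMIs against 2884.5 to 4065 UMIs elsewhere. Replicate 1 of each age had been counted with Cell Ranger 7.1.0 and the other 4 libraries with 7.2.0, per the file headers. Pairs of libraries shared 11 to 74 barcodes, at most 0.506% of the smaller library.

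The subunit genes were sparse. Together they gave 19859 UMIs, and 11795 of the 50241 nuclei, or 23.5%, held at least 1. Chrnb3 had 8498 UMIs, Chrna6 4196, Chrna7 3929 and Chrnb2 1797. The remaining members had far fewer, from 555 for Chrna4, 498 for Chrna3 and 221 for Chrna5 down to 94 for Chrna2 and 71 for Chrnb4, so that at these counts a low level cannot be told from none in most classes.

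Several members are neighbours in the genome (GRCm38, GENCODE M21). Chrnb3 (chromosome 8, 27368711 to 27399730, plus strand) and Chrna6 (chromosome 8, 27403212 to 27413944, minus strand) face each other with their 3′ ends 3.48 kb apart. On chromosome 9, Chrna5 (54980880 to 55007779, plus strand), Chrna3 (55010111 to 55026562, minus strand) and Chrnb4 (55028154 to 55048779, minus strand) follow each other with gaps of 2.33 kb and 1.59 kb. The other 4 lie apart: Chrna7 on chromosome 7 (63098692 to 63212569, minus strand), Chrnb2 on chromosome 3 (89746195 to 89764632, minus strand), Chrna4 on chromosome 2 (181018380 to 181043546, minus strand) and Chrna2 on chromosome 14 (66135039 to 66152948, plus strand). The annotation has an antisense gene, Gm47877, over Chrnb4, and whether counting used strand is not given in the sources used here, so the Chrnb4 counts are uncertain in that respect.

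Promoter sequence just before the start is shown for 3 members. Chrna3 was found mainly in a few ganglion cell clusters, its neighbour Chrna5 was nearly without counts in those cells, and Chrna7 had a level in rods that separated the ages. The windows are RefSeq's, on GRCm38.p6, written 5′ to 3′ on the gene's own strand, and overlap no gene of the annotation; 6 of the 9 members had an entry. Capitals mark matches to GGGCGG, the letters bound by SP1-type factors, or to TAATCC, the letters bound by the photoreceptor factor CRX, on either strand.
Chrna3, chr9:55026563-55026812, minus strand: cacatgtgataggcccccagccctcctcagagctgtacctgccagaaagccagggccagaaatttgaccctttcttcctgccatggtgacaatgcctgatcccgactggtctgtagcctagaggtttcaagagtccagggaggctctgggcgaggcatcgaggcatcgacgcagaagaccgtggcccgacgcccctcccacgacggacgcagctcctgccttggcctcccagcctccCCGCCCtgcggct
Chrna5, chr9:54980630-54980879, plus strand: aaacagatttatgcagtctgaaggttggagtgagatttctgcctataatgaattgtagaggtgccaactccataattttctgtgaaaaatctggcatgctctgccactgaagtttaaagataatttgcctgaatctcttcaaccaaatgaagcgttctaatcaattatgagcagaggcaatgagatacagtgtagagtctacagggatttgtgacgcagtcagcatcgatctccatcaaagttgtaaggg
Chrna7, chr7:63212570-63212776, minus strand: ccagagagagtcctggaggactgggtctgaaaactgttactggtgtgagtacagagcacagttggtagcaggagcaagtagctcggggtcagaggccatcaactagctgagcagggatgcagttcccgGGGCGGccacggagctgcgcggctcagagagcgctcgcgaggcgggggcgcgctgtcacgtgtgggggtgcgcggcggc
The Chrna3 and Chrna7 windows held 1 SP1 match each and the Chrna5 window none, and no window held TAATCC. Of all 32851 promoter windows in the table, 32.7% held GGGCGG and 6.25% TAATCC over 250 bases, and 26.0% and 5.38% over the 207 bases printed for Chrna7. GC content was 63.2% before Chrna3, 65.2% before Chrna7 and 40.0% before Chrna5. A match describes the letters only.

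Ganglion cells held the highest levels of 4 members, Chrnb3, Chrna6, Chrna3 and Chrnb2. For Chrnb3 and Chrna6, every other class was lower in each of the 6 libraries. Chrna6 encodes the alpha subunit known from high-affinity receptors of ganglion cell axons and dopamine neurons, and Chrnb3 the accessory subunit usually found beside it. Ganglion cells were 23.4% of the nuclei in the 10 classes, and they held 83.2% of the Chrnb3 UMIs, 81.2% of the Chrna6 UMIs and 81.9% of the Chrna3 UMIs of those classes. Their nuclei were deep: 7579 of them held 27332781 UMIs of all genes, against 14325671 UMIs in 14346 rods. Their share of all UMIs was thus larger than their share of nuclei, and the CPM levels below allow for this. In each of their 8 clusters, 5 to 9 of 14 ganglion cell markers were raised. The clusters were named from these same markers, so their raised level follows from the naming and is no separate check of identity.

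**Figure D1:**
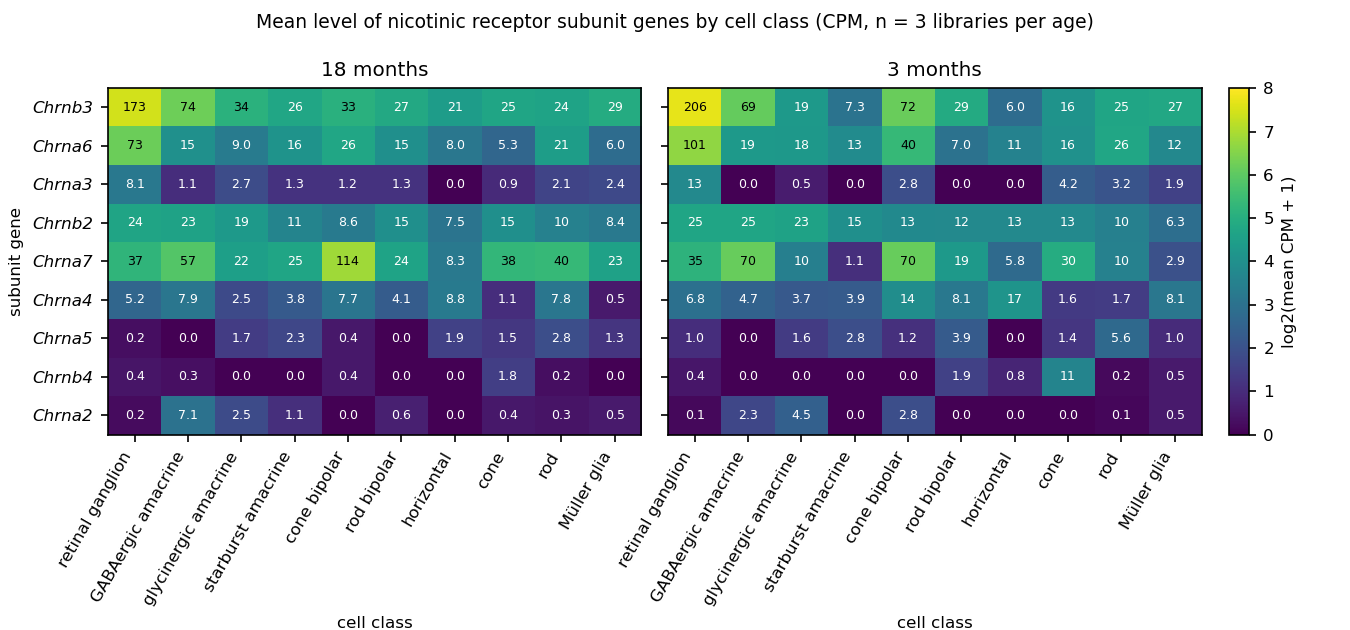
Mean level of each subunit gene (rows) in each of 10 cell classes (columns) in CPM, printed in the cells, with 18 months in the left panel and 3 months in the right; colour is log2(mean CPM + 1) over 3 libraries. Read along rows, since genes differ in length: Chrnb3 and Chrna6 are highest in ganglion cells at both ages, and the means for Chrna7 are highest in cone bipolar cells, at 114 CPM at 18 months and 70.0 CPM at 3 months, where GABAergic amacrine cells are close at 69.6 CPM. The 114 CPM includes 18-month replicate 3, with 5 Chrna7 UMIs in 26 cone bipolar nuclei.

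Chrnb3 in ganglion cells stood at 186, 204 and 129 CPM in the 3 libraries of 18 months, against 201, 210 and 206 CPM in those of 3 months. The lowest value was that of 18-month replicate 3, and the ages overlapped. GABAergic amacrine cells came next at 71.3 ± 6.49 CPM over both ages (SD, n = 6), below ganglion cells in 6 of 6 libraries by 1.38 ± 0.34 on the log2(CPM + 1) scale. Cone bipolar cells followed at 52.4 ± 33.8 CPM and were below GABAergic amacrine cells in 5 of 6 libraries; the classes below them, from 28.1 CPM in Müller glia to 13.3 CPM in horizontal cells, had spreads that overlapped.

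Chrna6 in ganglion cells was 103, 81.7 and 34.4 CPM at 18 months, against 94.1, 93.3 and 116 CPM at 3 months. The same 18-month replicate 3 was the low one. Cone bipolar cells came second at 32.6 ± 19.8 CPM, lower in 6 of 6 libraries, and rods followed at 23.2 ± 12.1 CPM (SD, n = 6). From GABAergic amacrine cells at 17.1 CPM down to Müller glia at 9.21 CPM, no class was above the next in all 6 libraries.

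Detection per nucleus showed the same order. At least 1 Chrna6 UMI was found in 27.0% of ganglion cell nuclei (median 3025 UMIs), against 2.25% of horizontal cell nuclei (median 2286 UMIs). Horizontal cells were taken as a rough guide to free RNA in the droplets, and whether they express these genes was not tested. Thinned to 1000 UMIs per nucleus, the shares were 9.83% and 1.12%. For Chrnb3 they were 42.8% in ganglion cells and 2.67% in horizontal cells, and 17.01% and 0.958% after thinning. For Chrna6, thinned cone bipolar nuclei stood at 3.02%, and the other classes, from 0.851% to 1.69%, were near the horizontal cell share. For Chrnb3, GABAergic amacrine cells had 6.35% of thinned nuclei with a UMI (median depth 1933 UMIs before thinning) and cone bipolar cells 5.54% (1521 UMIs).

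**Figure D2:**
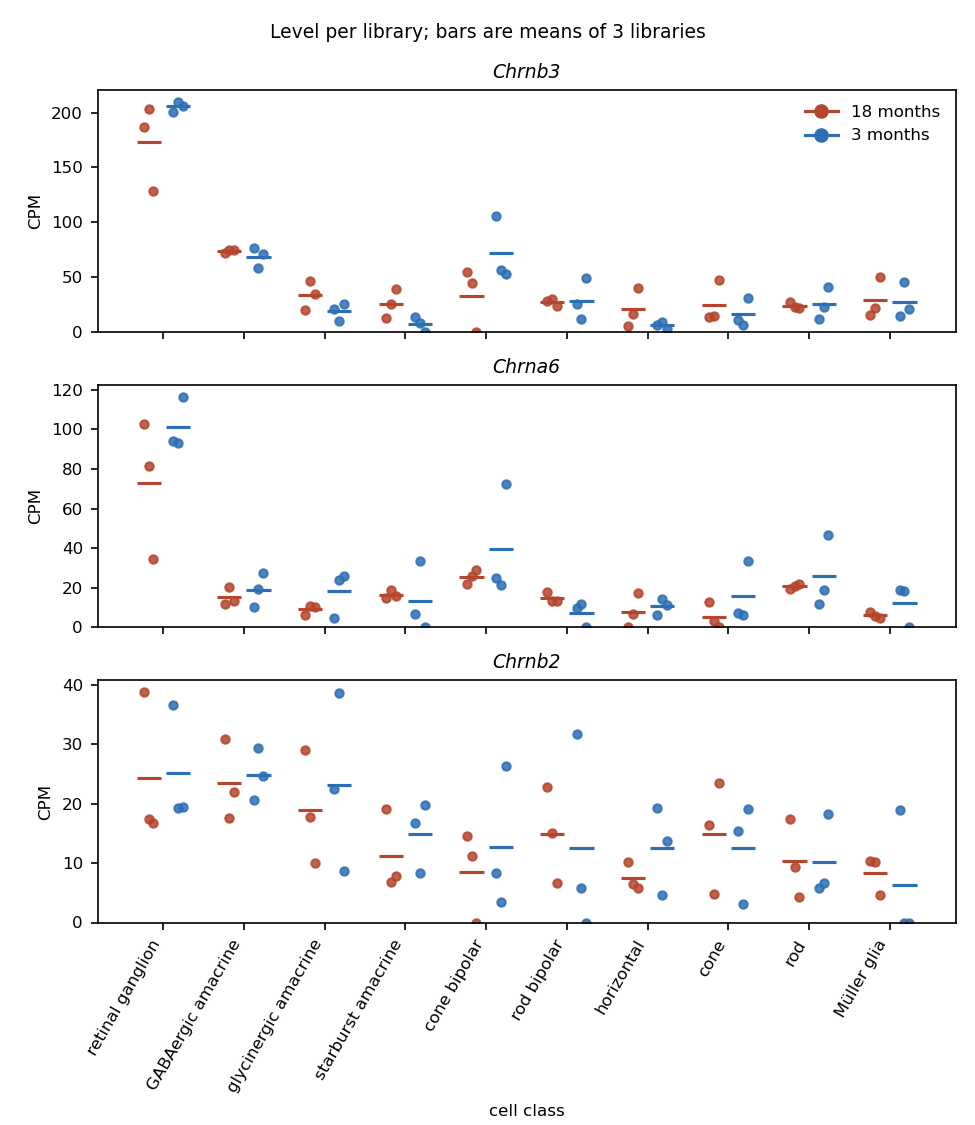
Level of Chrnb3, Chrna6 and Chrnb2 (CPM, linear axes from 0) in each library of 18 months (left in each pair) and 3 months (right) by cell class, with bars at the means of 3 libraries. Chrnb3 and Chrna6 stand above the other classes in ganglion cells, while Chrnb2 is spread over ganglion and amacrine cells, with replicate 1 of both ages high in ganglion cells at 38.8 and 36.6 CPM.

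The ratio of Chrnb3 to Chrna6 UMIs over all libraries was 2.02 in ganglion cells, from 5441 and 2698 UMIs, and 4.45 in GABAergic amacrine cells, from 307 and 69 UMIs. In rods it was 1.08, from 370 and 343 UMIs. Within ganglion cells the ratio was 1.81, 2.49 and 3.74 in the libraries of 18 months, against 2.14, 2.25 and 1.77 in those of 3 months, with the highest value in 18-month replicate 3. In GABAergic amacrine cells, 3 libraries had enough UMIs for a ratio. It was 6.25 and 3.63 in 18-month replicates 1 and 2, against 2.60 in 3-month replicate 3. In each of these 3 libraries the ganglion cell ratio was lower, at 1.81, 2.49 and 1.77. The ranges over all libraries overlapped through the ganglion cell value of 18-month replicate 3. Chrna6 detection in these amacrine cells was near that in horizontal cells, as given above.

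In single ganglion cell nuclei at equal depth, Chrnb3 was found about as often with Chrna6 as without it. After thinning, it was seen in 17.1% of the 702 nuclei with a Chrna6 UMI and in 17% of the 6436 without. Over libraries, the share among nuclei with Chrna6 was 15.4%, 10.3% and 0% at 18 months (the last of 15 nuclei only), against 24.1%, 22.7% and 15.8% at 3 months. Among nuclei without Chrna6 it was 17.3%, 16.6% and 11.7% at 18 months, against 17.7%, 18.5% and 17.1% at 3 months, so the share was higher with Chrna6 in only 2 of 6 libraries. With all UMIs counted, they were 55.03% and 38.3%, a comparison in which deeper nuclei fall into the first group. Thinning also lowered the share of ganglion cell nuclei with a Chrna6 UMI from 27.0% to 9.83%. A nucleus without a UMI may still express the gene, so these shares cannot decide whether the 2 genes are expressed together.

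Chrnb2, the beta subunit that partners Chrna4 and Chrna6 products in brain, was not tied to 1 class. Its level was 24.7 ± 10.1 CPM in ganglion cells, 24.1 ± 5.18 CPM in GABAergic amacrine cells and 21.1 ± 11.5 CPM in glycinergic amacrine cells (SD, n = 6), and ganglion cells were above GABAergic amacrine cells in only 2 of 6 libraries. In ganglion cells it was 38.8, 17.5 and 16.7 CPM at 18 months, against 36.6, 19.4 and 19.4 CPM at 3 months. The high library at each age was replicate 1, counted with the earlier Cell Ranger release, and the part of the release in this was not tested.

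Levels of different genes were set side by side per kilobase of gene span, introns included. Whether counts from this 3′ chemistry grow with span was not tested, so the order between genes is uncertain. On that scale ganglion cells held 8.12 ± 2.64 CPM of Chrna6 and 6.10 ± 0.99 CPM of Chrnb3 (SD, n = 6). Chrnb2 came to 1.34 ± 0.55 CPM per kb and Chrna3 to 0.63 ± 0.24. Chrna7, whose gene is 113.9 kb long, came to 0.316 ± 0.035 and Chrna4 to 0.237 ± 0.060 CPM per kb.

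Chrna3 encodes an alpha subunit best known from autonomic ganglia, where it joins the Chrnb4 and Chrna5 products, and its gene lies between theirs. In ganglion cells it had 10.8, 10.6 and 2.94 CPM at 18 months, against 10.5, 12.4 and 15.01 CPM at 3 months, again with the low value in 18-month replicate 3. Rods came second at 2.69 ± 1.56 CPM (SD, n = 6) and were lower in 6 of 6 libraries. Horizontal cells held no Chrna3 UMI. Chrna5 and Chrnb4 did not follow it into ganglion cells, where they stood at 0.641 ± 0.704 and 0.372 ± 0.450 CPM.

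Most of the Chrna3 signal came from a few ganglion cell clusters. The cluster led by Bnc2 and Lmo3, in which Cartpt and Col25a1, genes used as markers of direction-selective ganglion cells, were also raised and Mmp17, listed with them, was not, had 44.5 CPM (95% exact Poisson interval 37.9 to 51.9, from 162 UMIs in 794 nuclei). In the cluster led by Runx1 it was 45.9 CPM (31.2 to 65.2, 31 UMIs in 176 nuclei). In that led by Ccdc192 and Tbx20, with Eomes and the melanopsin gene Opn4 raised, it was 12.6 CPM (10.2 to 15.4). The other 5 clusters ran from 2.17 to 3.09 CPM. In the Bnc2 cluster the libraries gave 44.8, 39.6 and 23.4 CPM at 18 months, against 38.2, 40.8 and 53.4 CPM at 3 months, so every library of that cluster lay above every library of those 5. These intervals cover counting error only.

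The other members divided the ganglion cell clusters differently. Chrna4 was highest in the Tbx20 cluster, at 13.5 CPM (11.1 to 16.4), against 1.37 CPM (0.446 to 3.20) in the Bnc2 cluster. Chrna6 was lowest in the cluster led by Foxp2 and Kcnd2, a transcription factor and a potassium channel gene, at 34.5 CPM (26.8 to 43.9), while the cluster led by Chsy3 and Foxp2 had 129 CPM (113 to 146), although Foxp2 was among the leading genes of both. The highest Chrna6 value was 160 CPM (131 to 193) in the Runx1 cluster. Chrnb3 varied less, from 151 CPM in the Tbx20 cluster to 316 CPM (298 to 334) in the Bnc2 cluster.

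Chrna7 in ganglion cell clusters was highest in the cluster led by Kcnd2 and Ppp1r1c, at 54.6 CPM (48.1 to 61.6), and in the Bnc2 cluster, at 54.4 CPM (47.1 to 62.5). In the first of these Spp1 was raised (log2 fold 1.62 over the other ganglion cells), as was Tbr1 (1.06), while Jam2, listed with Tbr1, was lower (-0.50). It was lowest in the Foxp2 and Kcnd2 cluster, at 17.5 CPM (12.1 to 24.5). Chrnb2 ran only from 15.7 to 29.6 CPM over the 8 clusters.

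**Figure D3:**
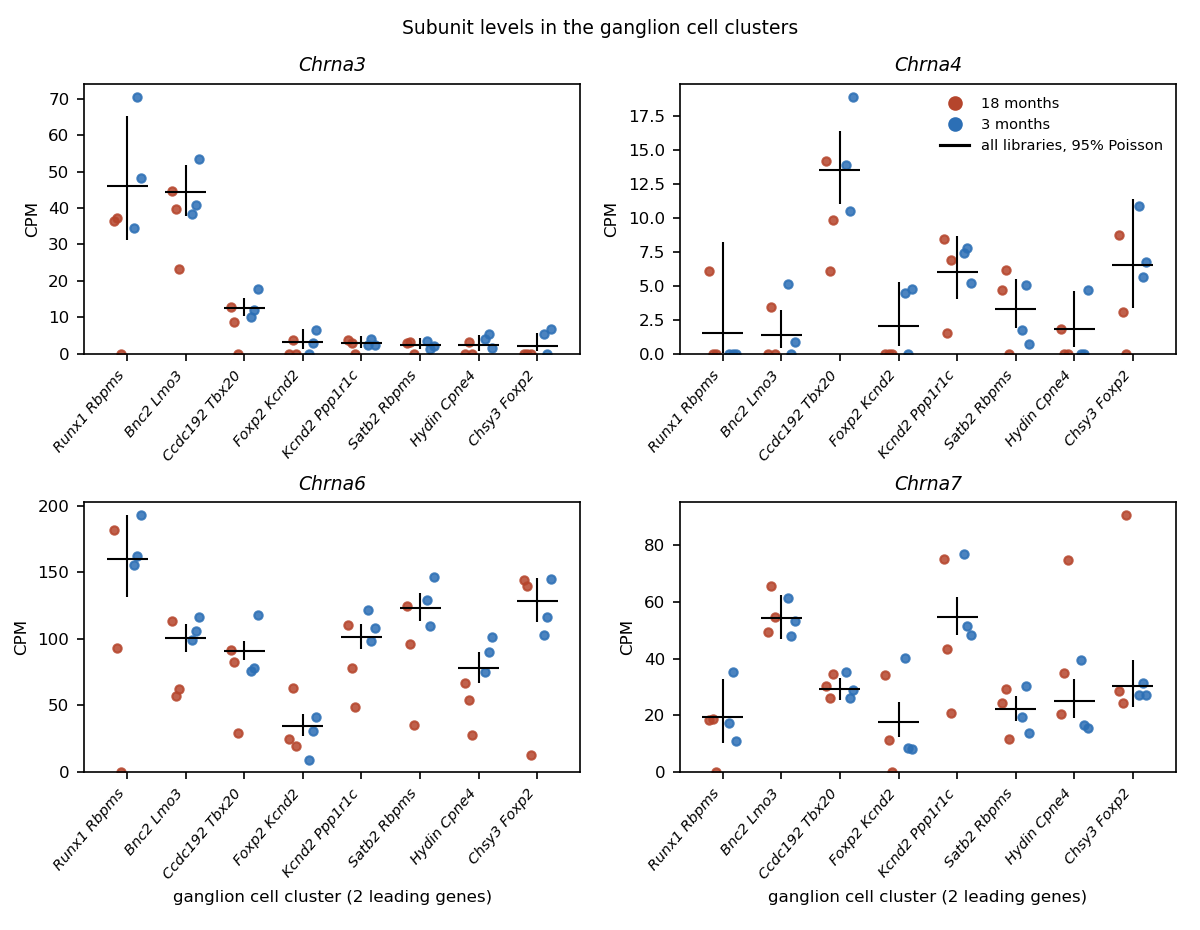
Level of Chrna3, Chrna4, Chrna6 and Chrna7 (CPM, linear axes from 0) in the 8 ganglion cell clusters, each named by its 2 leading genes; points are libraries with at least 10 nuclei in the cluster, 18 months left and 3 months right, and black marks give the value over all libraries with its 95% Poisson interval. Chrna3 is high in the Runx1 and Bnc2 clusters, at 45.9 and 44.5 CPM, and Chrna4 in the Tbx20 cluster, at 13.5 CPM.

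Among the 10 classes, Chrna7 was highest in cone bipolar cells, followed by GABAergic amacrine cells. Of its 3929 UMIs, 1843 lay in unnamed nuclei, among them clusters whose best-scoring markers were those of GABAergic amacrine or bipolar cells, and when nuclei were classed by a marker gate the mean in cone bipolar cells was 48.6 CPM, against 92.1 CPM as clustered. Cone bipolar cells had 120, 78.3 and 144 CPM at 18 months, against 97.7, 52.9 and 59.4 CPM at 3 months. The counts were 33, 63 and 5 UMIs at 18 months, against 35, 15 and 9 UMIs at 3 months. The highest value, that of 18-month replicate 3, came from only 26 nuclei. GABAergic amacrine cells had 79.2, 48.0 and 43.8 CPM at 18 months, against 89.1, 73.3 and 46.5 CPM at 3 months, and were below cone bipolar cells in 5 of 6 libraries. Ganglion cells followed at 36.04 ± 3.95 CPM (SD, n = 6), with the smallest SD of the 10 classes, and differed from cones, at 33.9 ± 14.9 CPM, by less than their spread. Horizontal cells were the lowest class, at 7.08 ± 5.18 CPM. The share of thinned nuclei with a UMI was 6.68% in cone bipolar cells, 6.12% in GABAergic amacrine cells and 0.479% in horizontal cells.

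Among bipolar cells, which carry photoreceptor signals to the inner retina in ON and OFF channels, a pair of ON clusters held the Chrna7 signal. The ON cone bipolar cluster led by Fer1l6 and Gabrr3, with the histamine receptor gene Hrh2 among its leading genes, had 358 CPM (269 to 467, 54 UMIs in 99 nuclei), the highest of the 59 clusters. Its libraries with at least 10 nuclei gave 364 and 319 CPM at 18 months, against 393 and 419 CPM at 3 months. The ON cluster led by Cdh9 and Ptprz1 had 199 CPM (148 to 262). The remaining ON clusters had 33.9 CPM (16.3 to 62.3) and 17.4 CPM (3.58 to 50.8).

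OFF cone bipolar clusters had less Chrna7 and, in part, more Chrnb3. That led by Grik1 and Fer1l6 had 82.6 CPM of Chrna7 (52.4 to 124). The cluster led by Neto1 and Pde1a had 123 CPM of Chrnb3 (97.2 to 153) and that led by Angpt1 and Erbb4 had 105 CPM (55.9 to 179), against 11.6 to 20.3 CPM of Chrnb3 in the 4 ON clusters. A cluster led by Neto1 and Pde1a was named ON cone bipolar at Leiden resolution 2 and with high doublet scores kept. Its OFF name thus depends on the setting. Rod bipolar cells, which serve dim light, had 21.5 ± 5.97 CPM of Chrna7 and 27.9 ± 12.1 CPM of Chrnb3 (SD, n = 6).

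**Figure D4:**
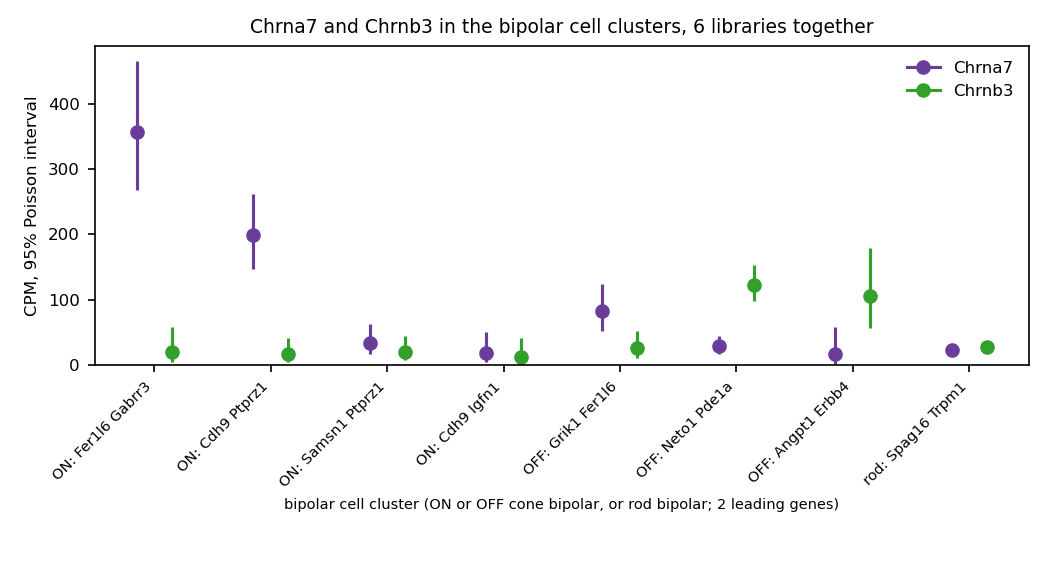
Level of Chrna7 and Chrnb3 (CPM, linear axis from 0) over all 6 libraries in each bipolar cell cluster, with 95% exact Poisson intervals; names give the class and 2 leading genes. Chrna7 peaks at 358 and 199 CPM in a pair of ON clusters, and Chrnb3 at 123 and 105 CPM in a pair of clusters named OFF in the main clustering.

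Among GABAergic amacrine clusters, the one led by Maf and Adarb2 combined 96.6 CPM of Chrnb3 (85.1 to 109) with 77.6 CPM of Chrna7 (67.3 to 89.01). Its Chrnb3 level was alike in all libraries, at 100, 96.0 and 94.5 CPM at 18 months, against 99.2, 82.8 and 99.1 CPM at 3 months. The cluster led by Hmcn1 and Htr2c had 80.7 CPM of Chrna7 but 27.7 CPM of Chrnb3, and the cluster led by Olfm3 and Tshr only 8.21 CPM of Chrna7 (3.01 to 17.9).

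Starburst amacrine cells themselves held little of any member. Chrnb3 stood there at 16.6 ± 13.9 CPM, Chrna6 at 14.9 ± 11.4 CPM and Chrna3 at 0.635 ± 0.993 CPM (SD, n = 6). Chat, Slc18a3 and Slc5a7, genes of acetylcholine synthesis, storage and uptake, were among the markers that named this class. Their high level there thus follows from the naming. Chat, the synthesising enzyme, had 303 ± 149 CPM there and at most 5.45 CPM in any other class. The vesicular transporter gene Slc18a3 had 60.7 ± 38.2 CPM and the choline transporter gene Slc5a7 257 ± 86.1 CPM in the same cells.

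Chrna4, Chrna5, Chrnb4 and Chrna2 had their highest levels outside ganglion and cone bipolar cells, at counts that placed them only roughly. Chrna4, the main alpha partner of the Chrnb2 product in brain, was highest in horizontal cells, with 5.10, 9.83 and 11.5 CPM at 18 months, against 22.5, 7.06 and 20.7 CPM at 3 months. Cone bipolar cells, at 10.9 ± 9.25 CPM, could not be separated from them. A cluster led by Tlr4 and Tac2 that carried GABAergic markers but stayed unnamed had 16.5 CPM of Chrna4 (12.7 to 21.2, 62 UMIs in 1410 nuclei), and 9.61 CPM of Chrna5 (6.73 to 13.3).

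Chrna5 had its highest class level in rods, at 4.86, 3.53 and 0 CPM at 18 months, against 1.93, 7.595 and 7.33 CPM at 3 months. These came from 72 UMIs in 14346 rods. The named GABAergic amacrine cells held no Chrna5 UMI. The unnamed Tlr4 and Tac2 cluster, in which 6 of 8 GABAergic markers were raised, had a Chrna5 level above the rod mean of 4.21 CPM. The place of Chrna5 among classes thus depends on which clusters were named. Chrnb4, the beta partner of the Chrna3 product in autonomic ganglia, had 23 of its 42 UMIs in the 10 classes in cones, which were 6.54% of the nuclei: 3.78, 1.59 and 0 CPM at 18 months, against 18.3, 3.16 and 11.9 CPM at 3 months. Chrna2, an alpha subunit with narrow expression in brain, reached 5.79, 2.28 and 13.2 CPM in GABAergic amacrine cells at 18 months, against 6.86, 0 and 0 CPM at 3 months. The ages overlapped for all 3 of these genes.

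Genes with the most similar class pattern were sought among 11785 genes by Pearson's r of mean log2(CPM + 1) over the 10 classes, which share libraries and depth. Chrna6 was closest to Pou4f2, a ganglion cell transcription factor (r = 0.900), then Hcn4 (0.898) and Tubb3 (0.894). Chrnb3 was closest to Cplx1 (0.931), Gpc5 (0.927) and Mmp15 (0.923), and Chrna3 to Gng4 (0.955), Nefl (0.950) and Rprm (0.937). Chrna7 was closest to Slitrk6 (0.938), Tex10 (0.915) and Sfxn3 (0.899), Chrnb2 to Fam189b (0.932), Heatr3 (0.927) and Morc2b (0.926), and Chrna4 to Pknox1 (0.888), Pinx1 (0.871) and Ryr3 (0.871). Between members, r was 0.794 for Chrna6 and Chrnb3 and 0.0885 for Chrna4 and Chrnb2.

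Age was compared in each class with edgeR's quasi-likelihood test on summed counts, with Benjamini-Hochberg adjustment over all genes of the class and a threshold of 0.05. Of the 90 pairs of member and class, 19 passed the low-count filter, covering 6 members; Chrna2, Chrna5 and Chrnb4 passed in no class. Of the 19, 0 were called, in fits that called 0.0% of 82087 gene and class pairs. At an unadjusted p under 0.05 there was 1 of 19 pairs, against 2228 of 82087, or 2.71%. DESeq2 called 0 of the 19 pairs and 36 gene and class pairs in all. The median log2 fold change, 18 over 3 months, was -0.17 over the 19 pairs and 0.00 over all pairs, with 6 members' pairs above 0 and 13 below.

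In ganglion cells, no member passed the test. Chrna6 had a log2 fold change of -0.48 ± 0.33 (SE; edgeR adjusted p = 1.0). It ran from -0.72 to -0.21 when each library was left out in turn, with -0.21 ± 0.20 without 18-month replicate 3, whose shallow ganglion cells were described above. Chrnb3 had -0.28 ± 0.20, with a range of -0.46 to -0.13 and the value nearest 0 again without that library. Chrna3 had -0.54 ± 0.38, with a range of -0.76 to -0.33 and the same library behind the value nearest 0. Chrna4 had -0.41 ± 0.33, Chrnb2 -0.01 ± 0.36 and Chrna7 0.03 ± 0.19. In cone bipolar cells Chrna7 had 0.49 ± 0.38 (adjusted p = 1.0). In these sums over a class, a change in its mix of subtypes and a change in RNA per nucleus cannot be told apart.

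Chrna7 in rods was the only pair with an unadjusted p under 0.05. Its level was 42.4, 33.8 and 43.6 CPM at 18 months, from 61, 230 and 10 UMIs, against 17.3, 6.96 and 6.87 CPM at 3 months, from 9, 22 and 15 UMIs. All 3 libraries of 18 months lay above all of 3 months, as did 8.31% of the 11944 genes with a mean of at least 5 CPM in rods. The log2 fold change was 1.86 ± 0.38 (SE). By edgeR's test, fitted across 11654 rod genes, its unadjusted p was 0.000934 and its adjusted p = 0.629, so it was not called. In rods, 738 genes, or 6.33%, had an unadjusted p under 0.05.

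The call depended on how the Cell Ranger releases and replicate numbers were treated. With the release as a term, the log2 fold change was 1.83 ± 0.29 and the edgeR adjusted p 0.00767, in a fit that called 7.41% of rod genes, or 2.51% as higher at 18 months. With the replicate number as a block it was 1.82 ± 0.32 with an adjusted p of 0.039, and 3.71% of rod genes were called, 1.01% as higher. In the 4 libraries of the later release alone it was 2.12 ± 0.35 with an adjusted p of 0.000383, and 17.7% of rod genes were called. Over all classes these fits called 1.19%, 0.738% and 3.39% of gene and class pairs, and no second pair of member and class. Within the earlier release, the single libraries stood at 42.4 CPM at 18 months and 17.3 CPM at 3 months; within the later one, at 33.8 and 43.6 CPM at 18 months and 6.96 and 6.87 CPM at 3 months.

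The rods of the libraries lay in different clusters. In the cluster led by the haemoglobin genes Hbb-bs and Hba-a1, Chrna7 had 35.97, 26.8 and 46.4 CPM at 18 months, against 27.0, 17.7 and 13.3 CPM at 3 months. These rested on 3, 81 and 6 UMIs at 18 months, against 1, 8 and 6 UMIs at 3 months. In the cluster led by Vax2os and Samd11, the 18-month libraries had 46.0, 45.8 and 42.9 CPM, against 59.5, 13.3 and 7.67 CPM at 3 months. The counts were 2, 132 and 4 UMIs at 18 months, against 1, 5 and 4 UMIs at 3 months. That led by Zan and Slc17a4 held 86.9% of the rods of 18-month replicate 1 and 77.0% of those of 3-month replicate 1, with 42.8 CPM from 56 UMIs and 16.6 CPM from 7 UMIs; the 55 rods of 18-month replicate 2 there held no Chrna7 UMI. In the cluster led by Pde6g and Rcvrn, 18-month replicate 2 had 21.9 CPM, against 8.24 and 5.09 CPM in 3-month replicates 2 and 3. The clusters led by Cnga1 and Pdc and by Cnga1 and Vtn held mostly 3-month rods and had the lowest levels, up to 7.70 CPM in 3-month libraries and 15.3 CPM in the only 18-month library with enough rods. The part of cluster make-up in the difference was not tested.

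Other measures of the rods overlapped by age over the 6 libraries, but several marker lists separated the ages within the later Cell Ranger release. Median depth was 908, 738 and 943 UMIs per rod at 18 months, against 837, 814 and 779 UMIs at 3 months. The median mitochondrial share was 1.95%, 1.58% and 2.27% at 18 months, against 3.56%, 3.101% and 1.82% at 3 months. In rods, the summed level of 6 bipolar cell markers was 402, 836 and 790 CPM at 18 months, against 393, 656 and 489 CPM at 3 months, with none of the 6 at 0 in any library. That of 16 ON cone bipolar markers was 241, 394 and 432 CPM at 18 months, against 320, 250 and 219 CPM at 3 months. That of 8 GABAergic amacrine markers was 271, 418 and 506 CPM at 18 months, against 343, 252 and 281 CPM at 3 months, and that of 12 Müller glia markers was 742, 1747 and 1684 CPM at 18 months, against 956, 879 and 899 CPM at 3 months, with none of either list at 0. In the later release, replicates 2 and 3, these 4 lists were higher in both libraries of 18 months than in both of 3 months, as Chrna7 was. So was a list of 11 cone markers, at 2111 and 2303 CPM against 1563 and 1945 CPM. A list of 14 ganglion cell markers overlapped there, at 777 and 1091 CPM against 671 and 1080 CPM. In replicate 1, of the earlier release, the ON cone bipolar, GABAergic, Müller glia and cone lists were lower at 18 months, while Chrna7 was higher. The cone list there was 1545 CPM at 18 months against 1888 CPM at 3 months, and the ganglion cell list 657 against 661 CPM. The part of these markers in the Chrna7 difference was not tested. Thinned to 1000 UMIs, 3.30% of 2454 rods held a Chrna7 UMI at 18 months, against 0.707% of 1980 rods at 3 months. These shares pool the libraries of an age. Before thinning, 18-month replicate 2 had 7280 rods, against 1148 and 231 in replicates 1 and 3, so it weighs most in the 18-month share.

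**Figure D5:**
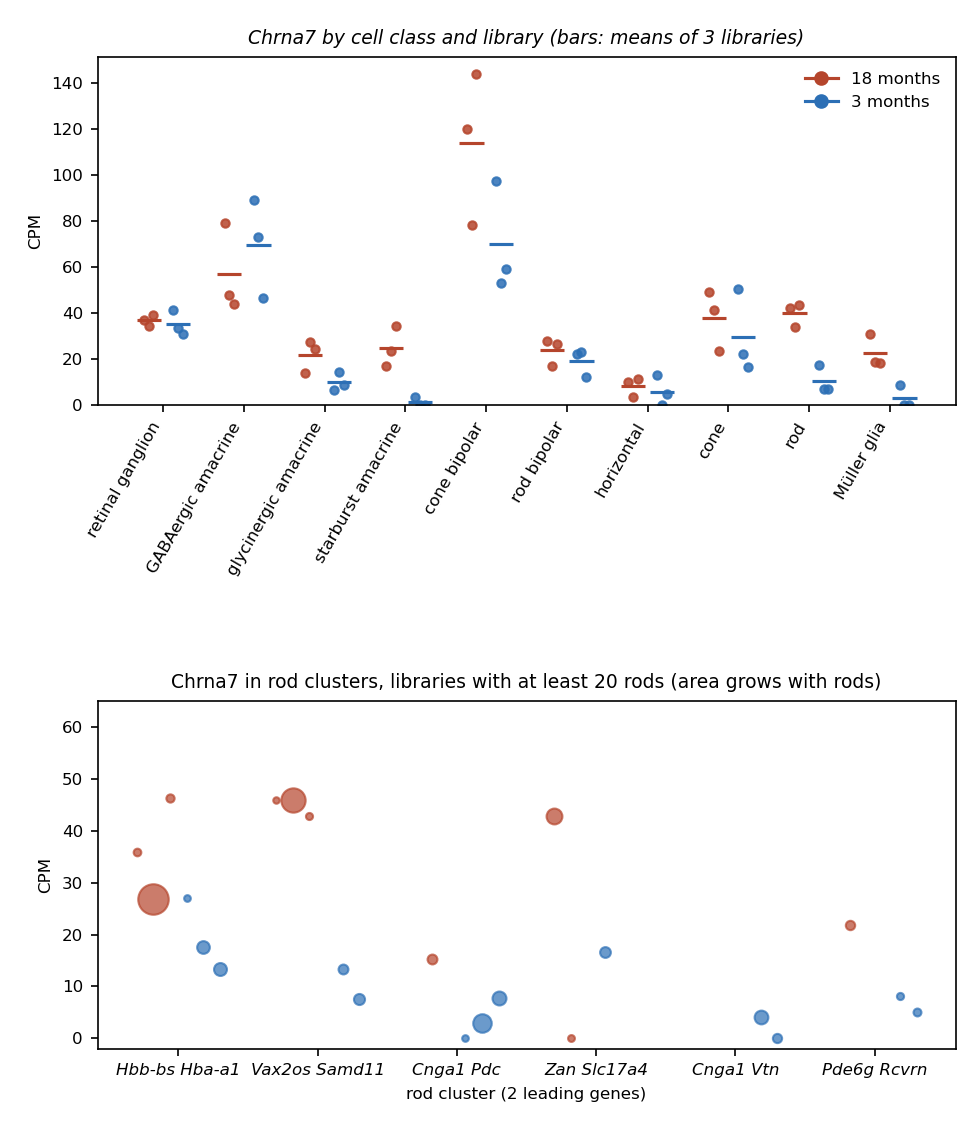
Chrna7 level (CPM) in each library by cell class (upper panel, bars at means of 3 libraries, 18 months left of 3 months) and in each rod cluster (lower panel, libraries with at least 20 rods, point area growing with the number of rods). The ages separate in rods and, at very low counts, in Müller glia and starburst amacrine cells. They overlap in the other 7 classes, among them ganglion cells.

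Chrna7 separated by age in 2 further classes at very low counts. Müller glia had 31, 18.8 and 18.3 CPM at 18 months, against 8.78, 0 and 0 CPM at 3 months, from 29 and 6 UMIs in all. Starburst amacrine cells had 16.95, 23.7 and 34.2 CPM at 18 months, against 3.35, 0 and 0 CPM at 3 months, from 35 and 1 UMIs. The values of 0 came from 55 and 60 Müller glia nuclei and from 33 and 20 starburst nuclei. Starburst nuclei numbered 135, 201 and 245 at 18 months, against 139, 33 and 20 at 3 months. A level of 0 in so few nuclei cannot be told from a low one. Neither passed the low-count filter, and without it the edgeR adjusted p was 0.930 in Müller glia and 0.875 in starburst cells. Among genes of at least 5 CPM, 5.35% in Müller glia and 4.91% in starburst cells were higher at 18 months without overlap. The mean for Chrna7 was higher at 18 months in 9 of 10 classes, the exception being GABAergic amacrine cells. Among the 9 were ganglion cells, at 36.9 CPM at 18 months against 35.2 CPM at 3 months. The classes share libraries and are not independent, and how often other genes reach such a count was not determined.

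Besides Chrna7, 3 pairs of member and class had ages that did not overlap, all at low counts and none past the low-count filter. Chrna4 in rods had 6.95, 3.38 and 13.1 CPM at 18 months, against 1.93, 2.21 and 0.916 CPM at 3 months, from 46 UMIs. The 13.1 CPM rested on 3 UMIs. Of rod genes with a mean of at least 5 CPM, 8.31% were higher at 18 months without overlap. The Chrna4 mean in rods, 4.75 CPM, was under that limit. In rod bipolar cells Chrna4 was lower at 18 months, with 5.08, 3.78 and 3.33 CPM, against 6.33, 5.80 and 12.2 CPM at 3 months, from only 9 UMIs. Chrna6 in rod bipolar cells had 17.8, 13.2 and 13.3 CPM at 18 months, against 9.5, 11.6 and 0 CPM at 3 months, from 23 UMIs. In rod bipolar cells, 3.83% of genes of at least 5 CPM were higher and 3.37% lower at 18 months without overlap.

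Other genes of the cholinergic pathway were read from a list of 27: the synthesis and uptake genes above, breakdown enzymes and their anchors, muscarinic receptors, receptor chaperones and the remaining nicotinic subunits. Of 68 tests of them over the 10 classes, 0 were called (edgeR), and 2 were higher and 2 lower at 18 months at an unadjusted p under 0.05. The median log2 fold change of these tests was -0.15, against 0.00 for all genes. These 4 were singled out after their values were seen. Chrm3, a muscarinic receptor gene, had 1.71 ± 0.59 in rods (SE; edgeR adjusted p = 0.629) and Chrm2 2.42 ± 0.76 in Müller glia (adjusted p = 0.738). Chrm2 had -1.19 ± 0.29 in GABAergic amacrine cells (adjusted p = 1.0), and Tmem35a, whose product assists assembly of Chrna7 receptors, had -0.96 ± 0.40 in rods (adjusted p = 0.629).

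By class, Ric3, another chaperone of nicotinic receptors, was highest in rods at 102 ± 27.1 CPM, with cones close at 93.8 CPM. Lynx1, encoding a membrane-bound modulator of these receptors, was highest in ganglion cells at 90.6 ± 29.9 CPM (SD, n = 6), with cones at 88.3 CPM. Lypd6b, of the same protein family, was also highest in ganglion cells, at 48.4 ± 16.0 CPM, while Lypd6 was highest in Müller glia at 134 ± 63.2 CPM. Ache, encoding acetylcholinesterase, stood at 31.5 ± 9.20 CPM in ganglion cells and 30.5 CPM in glycinergic amacrine cells. Chrm3 was highest in cone bipolar cells, at 589 ± 274 CPM, and Chrm2 in starburst amacrine cells, at 133 ± 77.1 CPM. Of the other nicotinic subunits, Chrnb1 had 532 UMIs and the remaining 6 had 2 to 20 UMIs each.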

How the data were processed

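Raw UMI counts per gene and barcode were deposited by the authors as 6 filtered matrices of nuclear RNA. Per the file headers they came from Cell Ranger 7.1.0 (replicate 1 of each age) or 7.2.0; the submitters' processing notes name Cell Ranger, Seurat and the build mm10. The members, lists and alternatives were chosen with earlier results of these data known. Of 62893 barcodes, nuclei with at least 300 genes and at most 5% mitochondrial UMIs were kept, and the highest Scrublet doublet scores were removed at 0.8% per 1000 nuclei (4989 nuclei). Nuclei of all libraries were clustered together with scanpy 1.11.5 (2000 variable genes without nicotinic subunit genes, 30 principal components, 15 neighbours, Leiden resolution 1, mixed clusters divided again at 0.5) and named from marker lists where at least 3 markers and 33.3% of a list were raised by a log2 fold of 1 over a pseudocount of 5 CPM; the numeric limits were chosen with the clusters already in view, and 42 of 59 received a name. ON and OFF cone bipolar cells were joined as 1 class for the age tests. Counts were summed per library and class. Age was tested with edgeR 4.0.16 (TMM, filterByExpr, quasi-likelihood, age only), which was tested on simulated data; DESeq2 1.42.0 was an alternative. Genes named are all members, with age statistics in their highest class and for any pair with an unadjusted p under 0.05, the 3 genes most alike in pattern for members with at least 200 UMIs in named classes, and cholinergic genes at their highest class. Age values of other members in ganglion cells and of 4 cholinergic gene and class pairs were added after their values were seen. Same-numbered libraries deviated together (r over 0.1 in all 3 pairs) in rods, ganglion cells and Müller glia, and not in the other 7 classes. In rods their r was 0.590, 0.576 and 0.153. Differently numbered rod pairs among replicates 2 and 3 also correlated, at 0.453 and 0.188. Rod pairs of replicate 1 with replicate 2 or 3 ran from -0.598 to -0.197. The libraries of each age were centred on their mean first, so positive values for some pairs force negative values for others. Replicate 1 was also the one counted with Cell Ranger 7.1.0. These values thus cannot tell the replicate number, whose meaning is not stated, from the release. Promoters were read from RefSeq. Intervals cover counting error only.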

Additional observations from a re-analysis of the deposited data

How the results depend on the processing

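The 10 class fits called no gene with age as reported, and the count of calls depended on the setting: 36 with DESeq2, 250 without the low-count filter, 606 with a replicate block, 975 with a term for the Cell Ranger release, 2502 in the 4 libraries of the later release and 1 with classes from a marker gate. Leaving out 1 library gave 0 to 117, the highest when 18-month replicate 1 was dropped and 8 when 3-month replicate 1 was. Members called were 0 as reported and 1, Chrna7 in rods, with the block, the release term or the later release alone; leaving out each library in turn gave 0 throughout. Its log2 fold change ran from 1.32 with high doublet scores kept to 2.17 without 3-month replicate 1, with adjusted p from 0.000383 to 1.0, and the marker gate left too few rods to fit. The block changed no other member's call. Chrnb2 in ganglion cells, at -0.01, ran from -0.48 to 0.28 with 1 library left out and was 0.32 under the marker gate. It turned positive when 18-month replicate 2 (0.17), 18-month replicate 3 (0.13) or 3-month replicate 1 (0.28) was left out, and the cause was not tested. The highest class of Chrna3, Chrna6 and Chrnb3 was ganglion cells in every alternative tried, while that of Chrna2, Chrna4, Chrna5, Chrna7, Chrnb2 and Chrnb4 changed in at least 1; for Chrna7 this was with high doublet scores kept, where cone bipolar cells were too few to enter. The Chrna7 level in cone bipolar cells was 48.6 CPM under the marker gate against 92.1 CPM. With 71 to 555 UMIs each, 5 members are limited by counting.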
